A study of Mus musculus with 3 samples.

Results

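The globins are the protein chains of haemoglobin, and 8 globin genes were followed across 3 RNA-seq libraries from mouse embryoid bodies. Members were chosen by symbol: the alpha-type genes Hba-x, Hba-a1 and Hba-a2 and the beta-type genes Hbb-bh1, Hbb-y, Hbb-bs, Hbb-bt and Hbb-b2, which are 8 of 23397 genes in the deposited tables. All 3 libraries came from Tie2+CD31+CD41- endothelial cells, sorted from embryoid bodies at day 4.75 of differentiation. Embryoid bodies are aggregates of differentiating embryonic stem cells. The first library is labelled Gata12KO, from embryonic stem cells given as Gata1&2KO, which names the transcription factor genes Gata1 and Gata2. The second is labelled SclKO, from stem cells knocked out for Scl, a transcription factor whose gene symbol is Tal1. The third is labelled WT, from wild type stem cells. There was 1 library per group, so no value has a replicate check, no test was made, and every difference describes these libraries. Whether each knockout line is 1 clone, and how many sorts or cultures went into a library, was not stated in the labels.

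Alpha-type and beta-type chains assemble with heme, an iron-containing ring, into the oxygen carrier of red blood cells. In the mouse, the first wave of primitive red cells in the yolk sac makes the embryonic chains encoded by Hba-x, Hbb-bh1 and Hbb-y. The chains called adult, encoded by Hba-a1, Hba-a2, Hbb-bs, Hbb-bt and Hbb-b2, are the main ones of later red cells. The earliest blood cells arise from endothelium or from shared precursors. Scl is required for all blood formation, and Gata1 is required for red cell maturation. Scl and the GATA factors bind red cell genes in a complex with Lmo2 and Ldb1, at a GATA sequence that often lies beside an E-box, CANNTG. Klf1 is known to bind CACCC sequences, including that of the adult beta promoter.

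The 250 bases upstream of 5 members are shown because the knocked-out factors are known to bind globin control regions. They were taken from RefSeq promoters on GRCm38.p6, which held 6 of the 8 members, and are written 5′ to 3′ on the gene's own strand. Position -1 is the base before the transcript start. Capitals mark the GATA hexamers, which were AGATAA and the form AGATAG together with TGATAA and the form TGATAG, as well as the motif CACCC and the motif CCAAT, each read on both strands. The windows are chr11:32276350-32276599 (+) for Hba-x, chr11:32283422-32283671 (+) for Hba-a1, chr7:103853208-103853457 (-) for Hbb-y, chr7:103827929-103828178 (-) for Hbb-bs and chr7:103813924-103814173 (-) for Hbb-bt.
Hba-x: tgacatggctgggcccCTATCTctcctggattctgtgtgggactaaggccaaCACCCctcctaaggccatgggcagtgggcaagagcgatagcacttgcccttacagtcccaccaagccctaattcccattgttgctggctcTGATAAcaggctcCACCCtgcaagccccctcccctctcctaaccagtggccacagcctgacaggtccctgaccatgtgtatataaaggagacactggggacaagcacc
Hba-a1: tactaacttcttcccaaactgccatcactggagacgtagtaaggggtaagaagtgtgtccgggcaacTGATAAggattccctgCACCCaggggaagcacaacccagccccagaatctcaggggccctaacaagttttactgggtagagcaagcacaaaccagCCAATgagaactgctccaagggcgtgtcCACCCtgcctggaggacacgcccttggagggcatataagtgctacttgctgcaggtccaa
Hbb-y: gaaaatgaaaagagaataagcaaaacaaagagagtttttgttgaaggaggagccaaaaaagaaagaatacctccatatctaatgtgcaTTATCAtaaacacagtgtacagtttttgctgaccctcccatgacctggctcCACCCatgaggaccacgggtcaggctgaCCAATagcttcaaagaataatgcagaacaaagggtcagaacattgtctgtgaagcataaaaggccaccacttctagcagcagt
Hbb-bs: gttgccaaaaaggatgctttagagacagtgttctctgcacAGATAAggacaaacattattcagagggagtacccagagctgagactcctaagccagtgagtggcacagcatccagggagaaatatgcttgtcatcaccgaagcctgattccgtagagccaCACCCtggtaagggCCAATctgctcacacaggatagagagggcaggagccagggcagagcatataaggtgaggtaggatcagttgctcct
Hbb-bt: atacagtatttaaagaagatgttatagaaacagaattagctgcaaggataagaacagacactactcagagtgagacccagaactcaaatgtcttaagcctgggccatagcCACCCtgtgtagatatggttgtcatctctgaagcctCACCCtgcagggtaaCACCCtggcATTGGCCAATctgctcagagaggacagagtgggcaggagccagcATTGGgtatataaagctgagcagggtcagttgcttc

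A GATA hexamer stood in 5 of the 6 windows, all but that of Hbb-bt, against 26.6% of the 32817 promoters of the same table cut to the same length. In Hba-x it was TGATAA at -108 to -103, with 7 bases between it and a CACCC at -95 to -91, and with a second match at -234 to -229 on the other strand. In Hba-a1 it was TGATAA at -183 to -178, and its first bases overlapped the CANNTG match CAACTG at -187 to -182. Hbb-y held TTATCA, the reverse complement of TGATAA, at -162 to -157, and Hbb-bs held AGATAA at -210 to -205. CACCC stood in all 6 windows, against 52% of promoters, and 3 times in Hbb-bt. CCAAT stood in 5 of 6, all but that of Hba-x, against 33.8%. A TATAA box was found in 5 of 6, all but that of Hbb-y, against 22.8%, and CANNTG in 5 of 6, again all but that of Hbb-y, against 66.2%. Of the 6 windows, 4 held a GATA hexamer, a CACCC and a CCAAT together, against 3.92% of promoters. The Hba-a2 window (chr11:32296242-32296491, +) shares a run of 247 bases with that of Hba-a1, so the 2 are not separate cases. These are letter matches in a short window and say nothing of binding.

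The coding sequences set how far the values of single members can be trusted, because the reads were 50 bases long. Coding sequences of 7 members were read from GENCODE M21 transcripts (Hbb-b2 had none under that name). Hba-a1 and Hba-a2 differ at 1 of 429 coding bases. Hbb-bs and Hbb-bt differ at 1 of 444. The embryonic Hbb-bh1 and Hbb-y differ at 105 of 444 bases (76.35% identity). The stretches below hold coding bases 351 to 410 of the first pair, 385 to 444 of the second and 26 to 85 of the third, 60 bases each, with every base that differs within the pair in capitals.
Hba-a1: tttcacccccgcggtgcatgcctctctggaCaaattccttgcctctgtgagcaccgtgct
Hba-a2: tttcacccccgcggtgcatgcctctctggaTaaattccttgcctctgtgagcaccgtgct
Hbb-bs: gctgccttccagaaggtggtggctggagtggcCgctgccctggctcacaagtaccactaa
Hbb-bt: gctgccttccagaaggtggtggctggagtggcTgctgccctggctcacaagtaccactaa
Hbb-bh1: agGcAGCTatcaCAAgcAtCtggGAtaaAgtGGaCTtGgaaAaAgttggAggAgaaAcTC
Hbb-y: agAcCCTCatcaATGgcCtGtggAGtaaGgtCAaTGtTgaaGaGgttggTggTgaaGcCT

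In Hba-a1 and Hba-a2, 331 of 380 stretches of 50 bases, or 87.1%, occur in the other copy, and in Hbb-bs and Hbb-bt 367 of 395, or 92.9%. None of the 50-base stretches of Hba-x, Hbb-bh1 or Hbb-y occurs in another member. The levels of these 3 embryonic genes could therefore be assigned from coding reads. The split between Hba-a1 and Hba-a2, and between Hbb-bs, Hbb-bt and Hbb-b2, is uncertain, and the sum over each group of copies is the safer value.

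**Figure D1:**
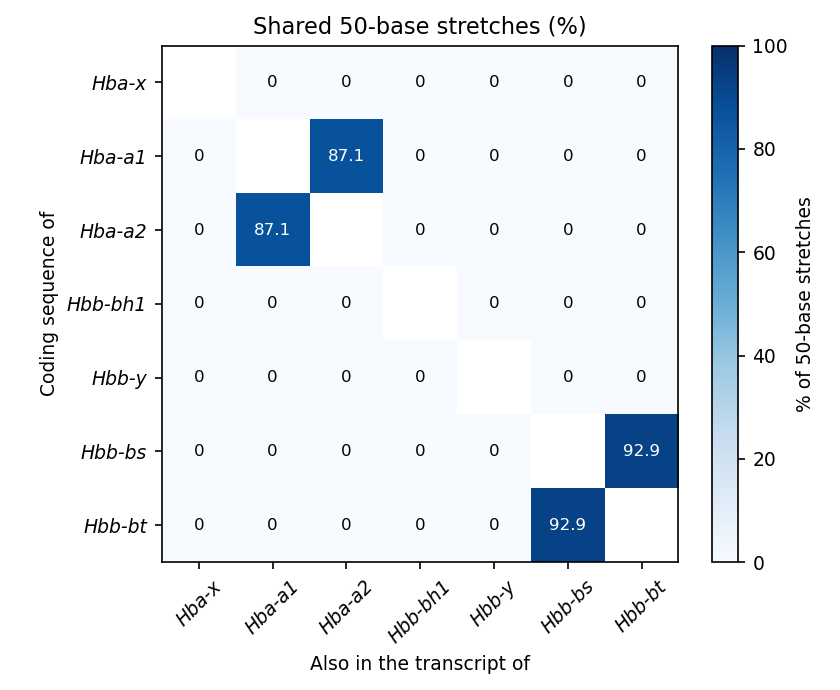
Percentage of all 50-base stretches in the coding sequence of the gene on the vertical axis that also occur in the transcript of the gene on the horizontal axis (GENCODE M21). The adult pairs share 87.1% and 92.9%, and every pair with an embryonic gene shares 0%.

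Levels are the authors' FPKM, fragments scaled by transcript length in kilobases and by library size, summed over a gene's entries, with the lower and upper bounds the authors' program gave. The bounds cover the program's own estimation error within a library and no biological spread. Fragment numbers were worked back from the bounds and are approximate. They put the libraries at 50.3 M fragments (M for 1000000) in the library labelled Gata12KO, 28.3 M in SclKO and 31.6 M in WT. A log2 ratio is that of FPKM + 1, which understates the change of low genes. A gene was called higher or lower where it had at least 1 FPKM in any library, differed at least 2-fold on that scale, and had bounds that did not overlap. Rplp0, a ribosomal protein gene that every cell uses, was listed at 0 in all 3 libraries, so a value of 0 may be a failed estimate. Such a value is given as listed at 0, and no plain FPKM fold of a single gene is taken against it. Log2 ratios of FPKM + 1, calls, sums, shares and ratios of sums do count it as 0.

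The labels were checked first. Tal1 had 38.7 FPKM in the library labelled Gata12KO, 1.59 FPKM in SclKO and 50.98 FPKM in WT. Gata1 had 5.66 FPKM in the library labelled Gata12KO and 4.64 FPKM in WT, and was listed at 0 in SclKO. Gata2 had 44.9 FPKM in the library labelled Gata12KO, 5.81 FPKM in SclKO and 12.05 FPKM in WT. Neither GATA gene was lower in the library labelled Gata12KO than in WT, and Gata2 was called higher. Summed entries cannot show whether those transcripts lack a deleted part, so the library is named by its label throughout, and each direction drawn from it rests on that label. All 8 endothelium markers were expressed in every library, Pecam1 (CD31) at 66.5, 50.4 and 48.3 FPKM and Tek (Tie2) at 62.9, 42.4 and 62.9 FPKM in the library labelled Gata12KO, SclKO and WT. Itga2b, which encodes the CD41 the sort selected against, had 17.6 FPKM in the library labelled Gata12KO, 0.333 FPKM in SclKO and 22.8 FPKM in WT.

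WT endothelial cells held transcripts of both globin families, and most of them were embryonic. Hbb-bh1, the embryonic beta-type chain made by primitive red cells, had 76.8 FPKM (bounds 72.1 to 81.6, about 1031 fragments), which ranked 713 of 11080 expressed genes. Hba-x, the embryonic zeta chain, had 71.3 FPKM (66.6 to 76.0, about 934 fragments), at rank 781. The bounds of these 2 genes overlapped, and their ratio was 1.08 (95% exact counting interval 0.985 to 1.18). Well below them came Hba-a2 at 15.4 FPKM (12.2 to 18.6), which stands for both adult alpha copies, since Hba-a1 was given 5.94e-05 FPKM. The remaining beta-type genes lay close together. Hbb-bs had 9.32 FPKM (7.70 to 10.9), Hbb-bt 7.97 FPKM (6.36 to 9.58) and the embryonic epsilon-y gene Hbb-y 7.89 FPKM (6.37 to 9.40), all with overlapping bounds. Hbb-b2 was lowest of the 7 expressed members at 1.27 FPKM (0.443 to 2.10, about 9.4 fragments). In this and every other value, fewer cells with globin RNA and less globin RNA per cell cannot be told apart.

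**Figure D2:**
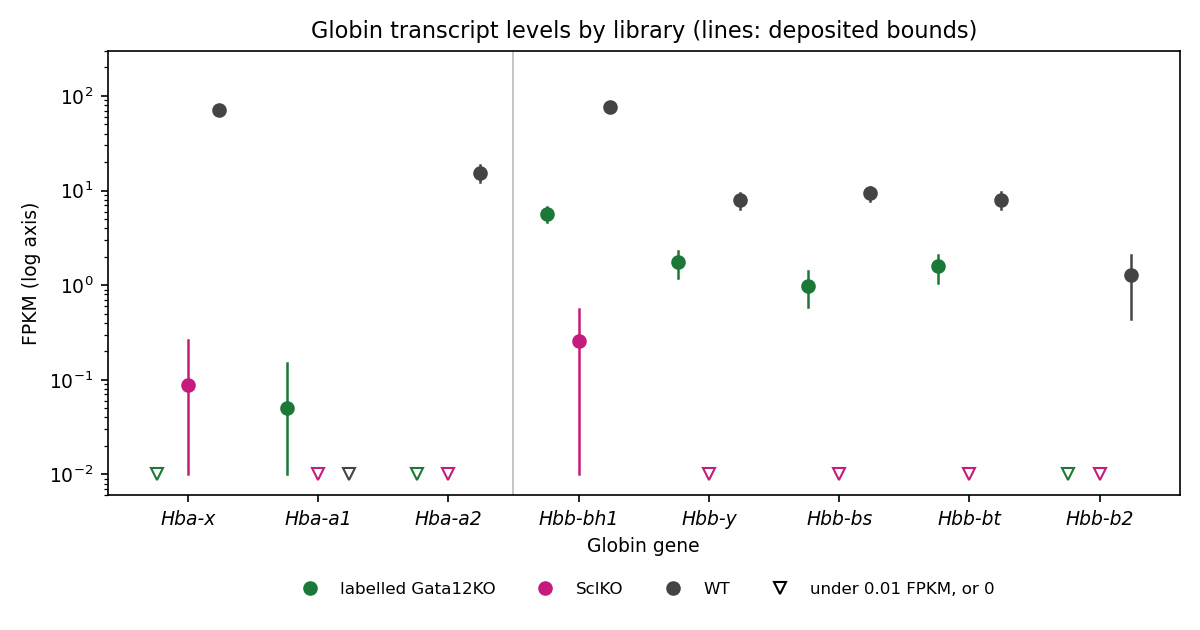
FPKM of each globin gene on a log axis, in the library labelled Gata12KO, SclKO and WT from left to right, with vertical lines for the deposited bounds and open triangles for values under 0.01 FPKM or 0. WT is the highest library for 7 genes; in the library labelled Gata12KO 4 beta-type genes lie above 0.9 FPKM, and in SclKO no gene reaches 0.3 FPKM.

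In SclKO cells nearly all globin signal was missing. By the size rule 7 of 8 members were lower than in WT and 0 were higher, where 4.24% of all expressed genes were called lower and 2.12% higher. The remaining member, Hba-a1, was below the 1 FPKM minimum in every library. The models of Hbb-bt and Hbb-b2 overlap at 1 locus, so these 2 are not separate cases. The median log2 ratio over the 8 members was -3.27, against -0.03 over all expressed genes. The minimum itself matters here, since Hba-x, Hba-a2, Hbb-bs and Hbb-b2 passed it only through WT. For these 4 members the WT value that let them in is also a side of the comparison. Their calls are therefore not independent of the minimum.

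Among the embryonic genes, Hbb-bh1 had 0.258 FPKM in SclKO (about 3 fragments), against 76.8 FPKM in WT, a log2 ratio of -5.95. The ratio of WT to SclKO was 298, with a counting interval of 102 to 1447. Hba-x had 0.0881 FPKM in SclKO, about 1 fragment, against 71.3 FPKM in WT, a log2 ratio of -6.05 and a WT to SclKO ratio of 809 (145 to 31990). Hbb-y was listed at 0 in SclKO, against 7.89 FPKM in WT (log2 ratio -3.15). All 5 adult genes were listed at 0 in SclKO as well. Their log2 ratios were -4.04 for Hba-a2, -3.37 for Hbb-bs, -3.17 for Hbb-bt and -1.18 for Hbb-b2. The calls of these genes and of Hbb-y rest on values listed at 0, which may be failed estimates. The globin RNA of the SclKO library thus rested on about 4 fragments, 3 of Hbb-bh1 and 1 of Hba-x, while WT had about 2495.

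Sums over the copies depend less on how reads were divided between them. The alpha-type sum was 0.0881 FPKM in SclKO and 86.7 FPKM in WT, a log2 ratio of -6.33. The beta-type sum was 0.258 FPKM in SclKO and 103 FPKM in WT, a log2 ratio of -6.37. With SclKO near 0 these log2 ratios mostly restate the WT levels. The WT to SclKO ratio was 984 (176 to 38905) for the alpha-type and 400.4 (137 to 1944) for the beta-type sum, with overlapping intervals. The sum of all 8 was 0.346 FPKM in SclKO and 190.03 FPKM in WT, and the WT to SclKO ratio was 549 (214 to 2017).

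The library labelled Gata12KO had almost no alpha-type signal, while part of the beta-type signal was present. By the size rule 7 of 8 members were lower than in WT and 0 were higher, where 3.75% of all expressed genes were called lower and 0.767% higher. The median log2 ratio over the 8 members was -2.09, against -0.08 over all expressed genes. The count depends on the pseudocount, since with 5 FPKM in place of 1 FPKM 4 members were called lower (Hba-x, Hba-a2, Hbb-bh1 and Hbb-bs). This comparison uses the same WT library as the one with SclKO, and Hbb-bt and Hbb-b2 again share 1 locus. Here too Hba-x, Hba-a2, Hbb-bs and Hbb-b2 passed the minimum only through WT, so their calls are not independent of it.

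Hba-x was listed at 0 in the library labelled Gata12KO, against 71.3 FPKM in WT, a log2 ratio of -6.18. It was the only one of 1116 genes with at least 50 FPKM in WT and transcripts of 300 nt or longer that was listed at 0 there. Hba-a2 had 0.000547 FPKM and Hba-a1 0.0502 FPKM in the library labelled Gata12KO, against 15.4 and 5.94e-05 FPKM in WT. The whole alpha family therefore came to 0.0507 FPKM (upper bound 0.253, about 1 fragment) in the library labelled Gata12KO, against 86.7 FPKM (78.9 to 94.95) in WT. On the log2 scale that sum differed by -6.38. Since the 0 of Hba-x may be a failed estimate, the adult alpha genes alone are also given: 0.0507 FPKM in the library labelled Gata12KO and 15.4 FPKM in WT, a WT ratio of 304 (53.9 to 12073).

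Beta-type genes in the library labelled Gata12KO were lower than in WT by smaller factors. Hbb-bh1 had 5.66 FPKM (4.65 to 6.67, about 126 fragments) in the library labelled Gata12KO, against 76.8 FPKM in WT. Its log2 ratio was -3.55, and the ratio of WT to the library labelled Gata12KO was 13.6 (11.3 to 16.5). Hbb-y, the other embryonic beta-type gene, had 1.76 FPKM (1.204 to 2.32, about 40 fragments) in the library labelled Gata12KO, against 7.89 FPKM in WT. Its WT ratio of 4.48 (3.09 to 6.61) was smaller than that of Hbb-bh1, and the intervals did not overlap. Of the adult copies, Hbb-bs had 0.990 FPKM in the library labelled Gata12KO and 9.32 FPKM in WT (WT ratio 9.41, interval 6.02 to 15.4). Hbb-bt had 1.58 FPKM in the library labelled Gata12KO and 7.97 FPKM in WT (WT ratio 5.04, 3.41 to 7.60). The intervals of Hbb-bs and Hbb-bt overlap, and the division of reads between them is uncertain. Taken as 1 group, adult beta-type transcripts had 2.57 FPKM in the library labelled Gata12KO and 18.6 FPKM in WT, a WT ratio of 7.22 (5.42 to 9.74). The beta-type sum was 9.99 FPKM (7.49 to 12.6) in the library labelled Gata12KO and 103 FPKM (92.9 to 114) in WT, a log2 ratio of -3.25 and a WT ratio of 10.3 (8.98 to 11.96). The WT ratio of the alpha-type sum was 1709, with an interval of 306 to 67570 that does not overlap that of the beta-type sum.

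Set against SclKO directly, the library labelled Gata12KO had more beta-type RNA. The size rule called 3 members higher, Hbb-bh1, Hbb-y and Hbb-bt, where 3.38% of all expressed genes were called higher, and 0 were lower, where 3.75% were called lower. The median over the 8 members was 0.53, against -0.06 over all expressed genes. Hbb-bh1 had 5.66 FPKM in the library labelled Gata12KO and 0.258 FPKM in SclKO, a log2 ratio of 2.40 and a ratio of 21.9 (7.33 to 108). Hbb-y (log2 ratio 1.46) and Hbb-bt (1.37) had 1.76 and 1.58 FPKM in the library labelled Gata12KO and were listed at 0 in SclKO. Hbb-bs missed the 2-fold step at a log2 ratio of 0.99 and passed it under 6 of the alternative settings. A pseudocount of 5 FPKM left Hbb-bh1 as the 1 member called higher. The beta-type sum of 9.99 FPKM in the library labelled Gata12KO and 0.258 FPKM in SclKO gave a ratio of 38.7 (13.1 to 189). The alpha-type sum was 0.0507 FPKM in the library labelled Gata12KO and 0.0881 FPKM in SclKO, about 1 fragment in each, so no difference was detectable at this depth.

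The make-up of the globin RNA differed between libraries in the same sense. Alpha-type transcripts were 0.505% of the globin FPKM sum in the library labelled Gata12KO, 25.5% in SclKO and 45.6% in WT. In fragments this was 1 of 226 in the library labelled Gata12KO (exact Clopper-Pearson interval 0.0112% to 2.44%), 1 of 4 in SclKO (0.631% to 80.6%) and 1116 of 2495 in WT (42.8% to 46.7%). The SclKO share is thus too uncertain to set beside the others. Beta-type over alpha-type FPKM was 197 (35.0 to 7809) in the library labelled Gata12KO and 1.19 (1.10 to 1.29) in WT. Without the embryonic genes, and so without the 0 of Hba-x, adult beta over adult alpha was 50.7 (8.76 to 2035) in the library labelled Gata12KO and 1.203 (0.988 to 1.47) in WT. These intervals cover counting error only.

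Within the beta family, the embryonic gene Hbb-bh1 led in both libraries that had enough reads, by different margins. Hbb-bh1 over Hbb-y was 3.21 (2.24 to 4.71) in the library labelled Gata12KO and 9.75 (7.99 to 11.995) in WT. Hbb-bh1 over the adult beta sum was 2.20 (1.61 to 3.04) in the library labelled Gata12KO and 4.14 (3.60 to 4.78) in WT. Neither pair of intervals overlaps. Hbb-y made up 17.5% of globin FPKM in the library labelled Gata12KO and 4.15% in WT, and adult beta genes 25.6% and 9.77%. All embryonic genes together made up 73.9% in the library labelled Gata12KO, 100% in SclKO and 82.1% in WT, where the SclKO value rests on 4 fragments. Globin transcripts were a small part of each library: about 9.05 of every 1000000 fragments assigned to entries in the library labelled Gata12KO, 0.274 in SclKO and 152 in WT.

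**Figure D3:**
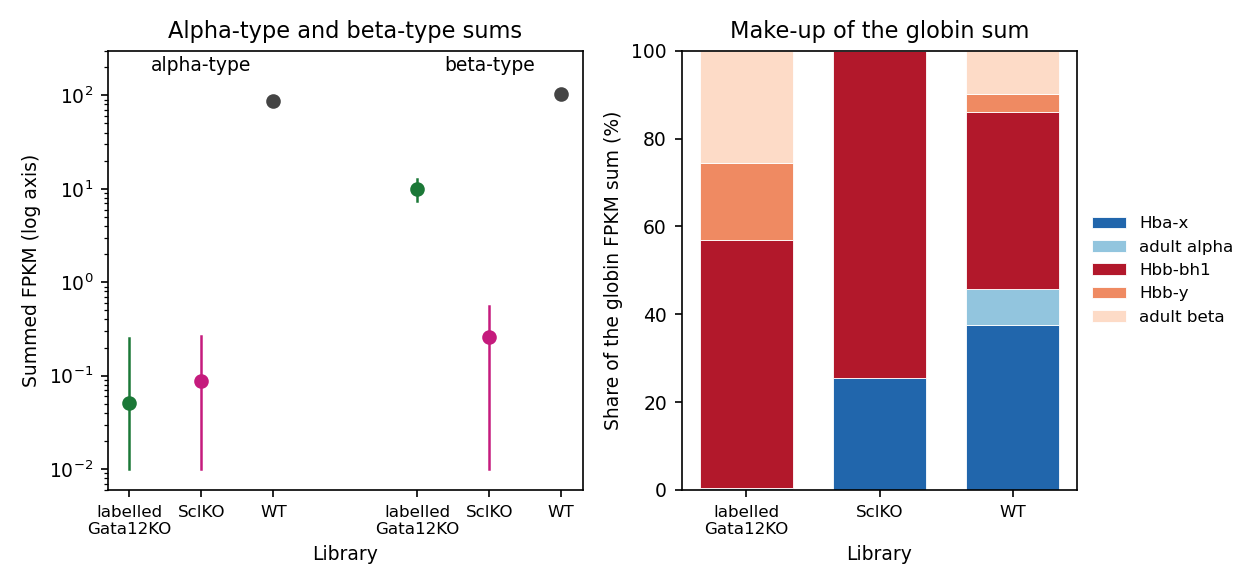
Left, summed FPKM of the alpha-type and beta-type genes on a log axis with summed deposited bounds; right, the share of each gene or group of copies in the globin FPKM sum, in percent, for the library labelled Gata12KO, SclKO and WT. The alpha-type sums of the library labelled Gata12KO (0.0507) and SclKO (0.0881) lie together far below WT (86.7), while the beta-type sum of the library labelled Gata12KO (9.99) lies between SclKO (0.258) and WT (103).

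The genes lie in a cluster per family, placed here on mm9, the build of the deposited coordinates. Hba-x spans chr11:32176600-32178115 on the plus strand, with 3 exons and 600 transcribed nt. The adult alpha copies occupy chr11:32183672-32184493 and chr11:32196489-32197310. The deposited tables place models of both Hba-a1 and Hba-a2 at each of these 2 loci, another reason to read the adult alpha genes as 1 value. The locus nearer Hba-x had 0.0507 FPKM in the library labelled Gata12KO, was listed at 0 in SclKO and had 9.56 FPKM in WT; the farther locus was listed at 0 in both knockout-labelled libraries and had 5.87 FPKM in WT. The beta genes run along the minus strand of chr7 with 3 exons each. Hbb-b2 (chr7:110961038-110962417) overlaps Hbb-bt (chr7:110961042-110962437), and their shared locus had 1.58 FPKM in the library labelled Gata12KO, was listed at 0 in SclKO and had 9.24 FPKM in WT. Hbb-bs lies at chr7:110975037-110976442, Hbb-bh1 at chr7:110990152-110991676 and Hbb-y at chr7:111000268-111001721.

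Within 150 kb of the alpha cluster lie 8 other genes, of which 5 were expressed. None of the 5 was called in any of the 3 comparisons, a count that the low share of calls over all expressed genes also gives. Nprl3, whose introns hold the main alpha-globin enhancers, had 2.64 FPKM in the library labelled Gata12KO, 3.40 FPKM in SclKO and 3.10 FPKM in WT. Mpg, a DNA repair glycosylase, had 14.9 FPKM in the library labelled Gata12KO, 12.9 FPKM in SclKO and 21.1 FPKM in WT. Snrnp25, Rhbdf1 and Sh3pxd2b kept values between 11.9 and 44.1 FPKM in every library, and Il9r stayed under 0.2 FPKM. The theta-globin genes Hbq1b, inside the cluster, and Hbq1a, beside it, were listed at 0 in every library. Around the beta cluster, 14 of 16 neighbours were olfactory receptor genes and 0 were expressed, so none could be called. Of the 16, 14 were listed at 0 in all 3 libraries, including Hbb-bh2, which lies between Hbb-bs and Hbb-bh1.

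**Figure D4:**
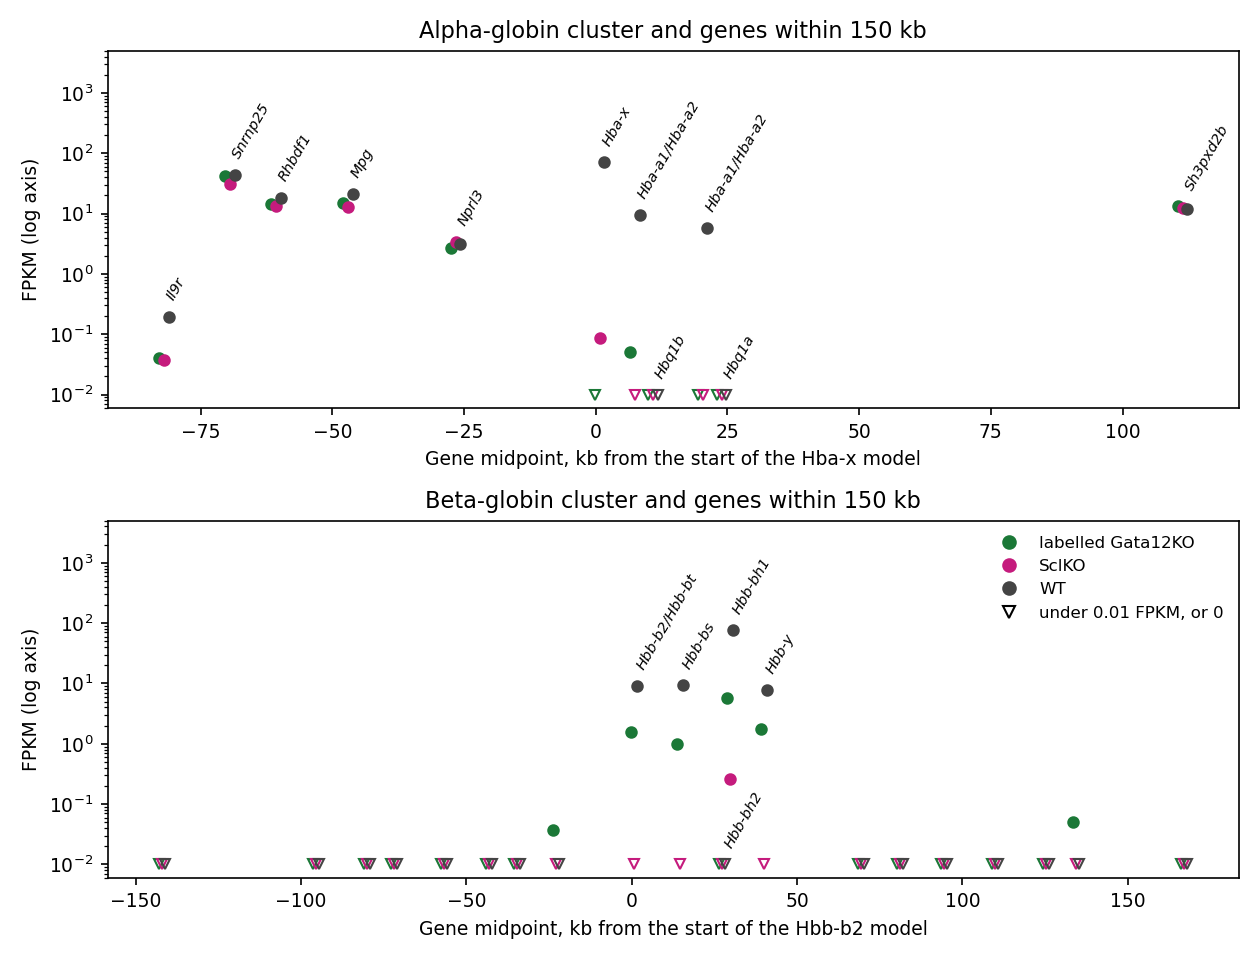
FPKM on a log axis of each globin gene or locus and of every gene within 150 kb, by distance in kb from the start of the cluster, with the library labelled Gata12KO, SclKO and WT set slightly apart and open triangles for values under 0.01 FPKM or 0. Near the alpha cluster (top) none of the 5 expressed neighbours is called in any comparison, and near the beta cluster (bottom) no neighbour is expressed.

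Genes of the wider red cell programme were followed by fixed lists, and the regulators of globin transcription come first. In SclKO against WT, 8 of 27 expressed regulators were lower and 0 higher, with a median log2 ratio of -0.40, where 4.24% of all expressed genes were lower and 2.12% higher. The 4 largest differences were in Tal1, the knocked-out gene (-4.33), Lyl1, its close relative (-3.25), Nfe2, which binds the beta-globin locus control region (-2.98), and Myb, a factor of blood progenitors (-2.77). In the library labelled Gata12KO against WT, 4 of 27 were lower and 1 higher, with a median of -0.26, where 3.75% of all expressed genes were lower and 0.767% higher. The largest were Myb (-1.92), Gata2 (1.82), Nfe2 (-1.70) and Gfi1b, a transcriptional repressor needed for red cell and megakaryocyte development (-1.68). Nfe2 had 1.96 FPKM in the library labelled Gata12KO, 0.217 FPKM in SclKO and 8.60 FPKM in WT, the same order of libraries as the beta-type globins. Lyl1 had 17.5 FPKM in the library labelled Gata12KO, 1.35 FPKM in SclKO and 21.3 FPKM in WT. In the library labelled Gata12KO against SclKO, 7 of 27 were higher, against 3.38% of all expressed genes, and 0 lower, against 3.75% (median 0.06), led by Tal1 (3.94), Lyl1 (2.98), Gata2 (2.75) and Gata1 (2.74). The shared partners Lmo2 and Ldb1 were not called in any comparison. Klf1, named after its values were seen, stayed below 1 FPKM throughout, with 0.0727 FPKM in the library labelled Gata12KO, 0.106 FPKM in SclKO and 0.798 FPKM in WT.

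Of 9 heme synthesis genes, 1 was called in any comparison. Alas2, the red cell form of the first enzyme of the pathway, had 1.53 FPKM in the library labelled Gata12KO, 0.143 FPKM in SclKO and 6.30 FPKM in WT. It was the 1 of 9 heme genes called lower in SclKO against WT (-2.68; list median -0.26) and in the library labelled Gata12KO against WT (-1.53; list median -0.29), and the 1 called higher in the library labelled Gata12KO against SclKO (1.15; list median -0.12). Over all expressed genes, 4.24% and 3.75% were called lower and 3.38% higher in these comparisons. A count of 1 in 9 says little about the list. Alas1, the form used by all cells, had 9.67 FPKM in the library labelled Gata12KO, 10.2 FPKM in SclKO and 8.30 FPKM in WT. Of 10 expressed genes of iron handling and globin folding, 0 were called in SclKO against WT (median -0.04) or in the library labelled Gata12KO against SclKO (-0.21). In the library labelled Gata12KO against WT 2 were lower (median -0.11), where 3.75% of all expressed genes were. They were Blvrb, a biliverdin reductase (-1.29), and Tmem14c, a mitochondrial porphyrin transporter (-1.16). With each library rescaled to its own FPKM sum, or with the trend with transcript length taken out, neither was called lower. With each library rescaled to its own sum, 3 genes of the list were instead called higher in the library labelled Gata12KO than in WT, and 4 higher than in SclKO.

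Most red cell membrane genes were not expressed. Only 5 of 18 reached 1 FPKM in any library. Of these, 4 were lower in SclKO than in WT (median -1.41), where 4.24% of all expressed genes were. They were Car2, a carbonic anhydrase (-3.19), Epb42, a membrane skeleton protein (-1.67), Epor, the erythropoietin receptor (-1.41), and Gypc, a glycophorin (-1.22). In the library labelled Gata12KO against WT, 0 of the 5 were called in either direction (median -0.61), the largest difference being that of Epb42 (-0.95), with 0.725 FPKM in the library labelled Gata12KO and 2.32 FPKM in WT. Car2 had 46.1 FPKM in the library labelled Gata12KO, 6.44 FPKM in SclKO and 66.7 FPKM in WT. It was the 1 gene of the list called higher in the library labelled Gata12KO than in SclKO (2.66, list median 0.75). Over all expressed genes 3.38% were called higher there. The count of 1 ran from 1 to 6 over the alternatives. Of the other globins, Cygb (cytoglobin, found in many non-red cells) ran the other way, with 2.36 FPKM in the library labelled Gata12KO, 11.8 FPKM in SclKO and 3.94 FPKM in WT. It was called higher in SclKO than in WT, except with a pseudocount of 5 FPKM, and lower in the library labelled Gata12KO than in SclKO, and it was the 1 expressed gene among 7 other globins with an entry.

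**Figure D5:**
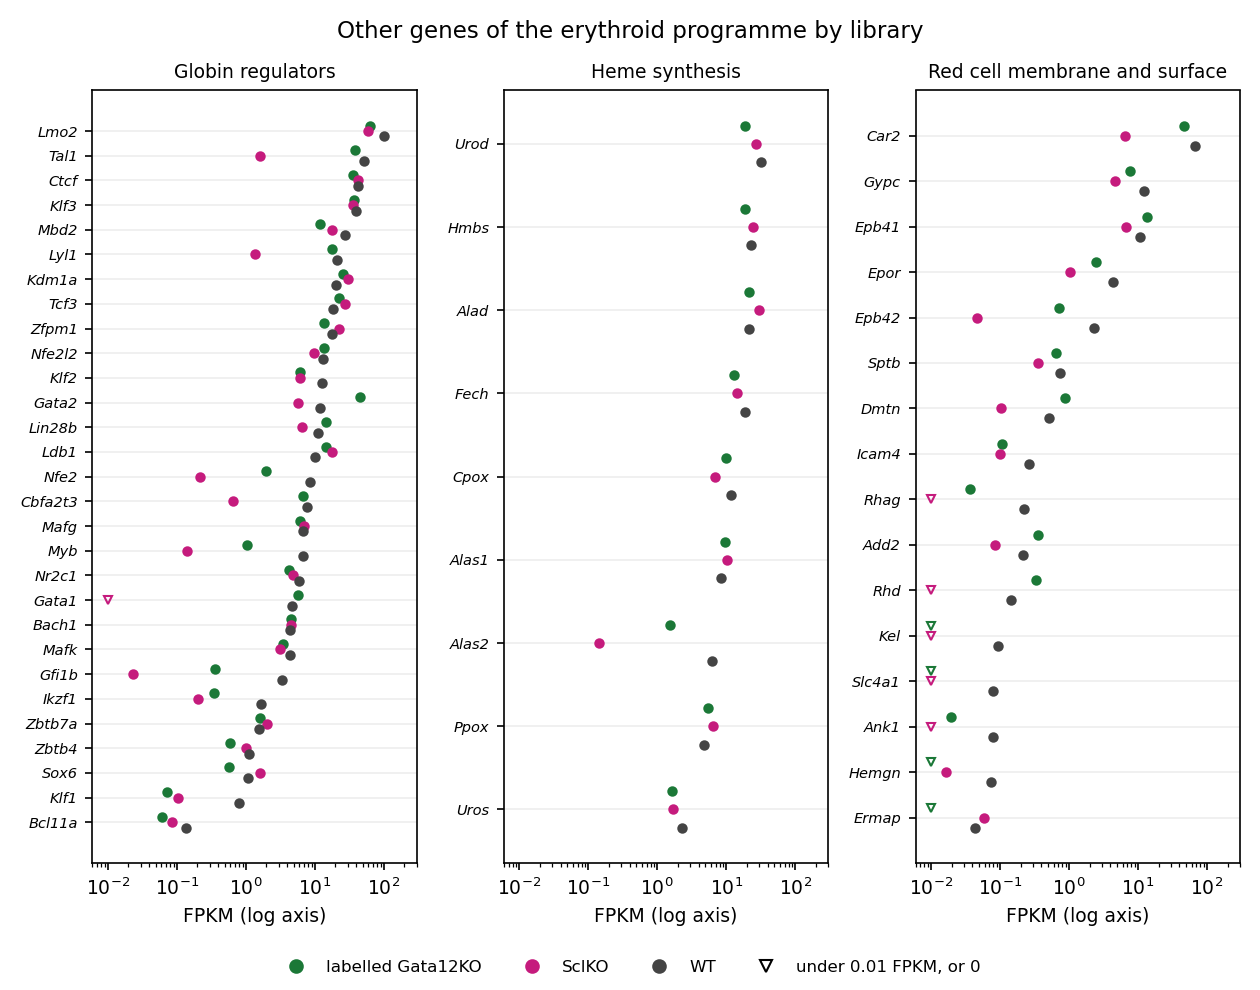
FPKM on a log axis of the globin regulators, heme synthesis genes and red cell membrane genes with a value above 0 in any library, ordered by WT level, with the library labelled Gata12KO above SclKO above WT in each row. Alas2 stands apart from the other heme genes (1.53, 0.143 and 6.30 FPKM), and most membrane genes lie below 1 FPKM everywhere.

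The marker lists of red cells, megakaryocytes and leukocytes had the same order of summed levels as the beta-type and all-globin sums. These were lowest in SclKO and highest in WT, and the endothelium list did not have this order. The alpha-type sums, at about 1 fragment in each knockout-labelled library, cannot be ordered between them. Of 5 mature red cell markers used here, 2 were expressed, Alas2 and Epb42, and the summed level of the 5 was 2.29 FPKM in the library labelled Gata12KO, 0.205 FPKM in SclKO and 8.998 FPKM in WT. Alas2 gave most of that sum, while Slc4a1, the anion exchanger of mature red cells, was listed at 0 in the library labelled Gata12KO and in SclKO and had 0.0797 FPKM in WT, and Hemgn and Rhag stayed under 0.3 FPKM. Megakaryocyte and platelet markers (5 of 8 expressed) summed to 21.01 FPKM in the library labelled Gata12KO, 1.94 FPKM in SclKO and 36.1 FPKM in WT, with Ppbp at 0 throughout. Of the 5, 3 were lower than in WT in the library labelled Gata12KO (3.75% of all expressed genes were) and 5 in SclKO (4.24%). Itga2b, most of that sum, was not called in the library labelled Gata12KO against WT (-0.36). Leukocyte and myeloid markers (3 of 7 with an entry expressed) summed to 5.03 FPKM in the library labelled Gata12KO, 0.817 FPKM in SclKO and 17.7 FPKM in WT, led by the myeloid enzyme gene Mpo, while Ptprc (CD45) and Csf1r were at or near 0 in all 3. Endothelium markers summed to 545 FPKM in the library labelled Gata12KO, 249 FPKM in SclKO and 459 FPKM in WT. Of the 8, 3 were lower in SclKO than in WT (Esam, Tie1 and Cdh5), where 4.24% of all expressed genes were. Kdr alone was higher in the library labelled Gata12KO than in WT, where 0.767% of all expressed genes were. The part of these other cell types in the globin differences was not tested.

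The genes most like the globins over the 3 libraries were also named. Each of 7367 genes with at least 5 FPKM in any library was written as its share of its own 3-library sum, and the 8 with the smallest summed absolute difference from the all-globin sum are given. The globin sum itself had 5.01% in the library labelled Gata12KO, 0.173% in SclKO and 94.8% in WT. Nearest was Adgrg1, an adhesion receptor also called GPR56, with 0.985 FPKM in the library labelled Gata12KO, 0.232 FPKM in SclKO and 9.37 FPKM in WT (difference 0.126 on a scale where 0 is identical). Next came Spi1 (PU.1, a myeloid and lymphoid transcription factor) with 0.954, 0.0312 and 6.58 FPKM, and Myb with 1.06, 0.143 and 6.77 FPKM in the same libraries. Nfe2, Alas2, Fxyd7, Prg4 and Bik followed, the last at a difference of 0.325. None of the 8 was as concentrated in WT as the all-globin sum: Adgrg1 had 88.5% of its sum there and Bik 78.5%. That sum is mostly Hbb-bh1 and Hba-x, and single globins were not compared in this way. With 3 points per gene this likeness is a description only.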

How the data were processed

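RNA was sequenced on a HiSeq-2000 after library construction with a NuGEN Encore Complete RNA-Seq DR kit, as 50-base reads, per the labels' protocols. The submitters' processing notes name both mm9 and the human build hg19 as builds. They name TopHat2 (2.0.4) as a tool and Cufflinks (2.0.1) with Cuffdiff as others. The authors deposited a transcript table per library with FPKM and its lower and upper bound for 30123 entries. How multiply aligned reads were treated, and whether strand was used, was not recorded in these sources.

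Accessions were named by RefSeq (29030 of 29610) or GENCODE M21 (173), and 134 entries were left out because 1 of the tables named another gene there. FPKM and bounds were summed per gene to 23397 genes, 11080 of them with at least 1 FPKM in any library. Fragments were estimated from the bounds as the square of FPKM over its standard deviation, which was taken as the gap to the upper bound divided by 2. The rule for calls was also run on data simulated with counting noise only. No low gene was changed in that run, and it held no reads shared between copies and no spread between cultures. It therefore says little of the member calls. Named were all members, Tal1, Gata1, Gata2, all neighbours within 150 kb, the 8 genes most alike, and up to 4 genes per list and comparison with the largest ratios; other genes were named after their values were seen. Members and lists were chosen with earlier results of these data known. Hbb-bh3, Hbb-bh0, Ahsp and Cd68 had no entry under those symbols. Some members of the lists are not reported here and are left out of their counts. With 1 library per group, no p-value was computed. Alternatives were other pseudocounts, minima, scalings, a removed trend with transcript length, other bounds and the highest entry per gene. Python 3.11.15, numpy 2.4.6 and pandas 2.3.3 were used.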

Additional observations from a re-analysis of the deposited data

How the results depend on the processing

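No paired analysis was possible because each group has 1 library. The member counts and family sums were recomputed under 11 alternatives and the shares under 2, and 174 of the 177 values obtained kept their direction, their side of the size rule or their size within the tolerance. Other minima and other bounds cannot move the log2 ratio of a sum, only its call, so those values add little to the count. No called value reversed. With a pseudocount of 5 FPKM, 4 members in place of 7 were called lower in the library labelled Gata12KO than in WT, and 1 in place of 3 was called higher than in SclKO. With the highest entry of each gene, the embryonic share in WT was 84.7%, in place of 82.1%. Hbb-b2 lost its call in both comparisons with WT under the pseudocount of 5 FPKM, under a minimum of 5 FPKM, and with the trend with transcript length subtracted, an alternative chosen after seeing the data. The same pseudocount also lowered the counts of the lists. In the library labelled Gata12KO against WT 0 genes were called lower among the regulators, heme genes and other-cell markers, and in SclKO against WT 5 regulators, 1 membrane gene and 1 marker each of megakaryocytes, leukocytes and mature red cells. Counts also grew: under library-sum rescaling 6 membrane and 4 iron and folding genes were called higher in the library labelled Gata12KO than in SclKO, against 1 and 0. Over the alternatives the log2 ratio of the alpha-type sum ranged from -9.17 to -4.18 and that of the beta-type sum from -3.36 to -2.61 in the library labelled Gata12KO against WT, and from -8.85 to -4.17 and -8.17 to -4.36 in SclKO against WT. Rescaling to the library sum moved the median log2 ratio of expressed genes to 0.52 in the library labelled Gata12KO against WT and to 0.66 against SclKO, but only to -0.14 in SclKO against WT; without it these medians were -0.08, -0.06 and -0.03. Depth limits the alpha-type values of both knockout-labelled libraries to about 1 fragment each, and bounds and intervals cover no spread between cultures. The cause of the changes under the alternatives was not tested.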
